A study of Mus musculus with 4 samples.

Results

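The genes described here are 10 immunoglobulin constant region genes, found by symbol among the 55450 genes counted in 4 single-cell libraries of mouse intestine and brain. They are the heavy chain genes Igha, Ighm, Ighd, Ighg1, Ighg2b, Ighg2c and Ighg3 and the light chain genes Igkc, Iglc1 and Iglc2, and each symbol matched 1 row. The study made 1 library from untreated and 1 from NPs-treated wild-type mice in each tissue, with NPs given for 1 week in the intestinal and for 2 months in the brain group. What NPs stands for is not given. The labels name BALB/c mice of 5 weeks and ICR mice of 6 months without tying a strain or an age to a tissue, and give no number of animals per library. The series title names the colon where the sample labels say intestine. With 1 library per group there is no replicate error and no test, so every difference below is one between 2 libraries. Intervals are exact at 95% and cover counting error only. Higher and lower mean the NPs library against the untreated library of the same tissue.

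An antibody is built of heavy and light chains whose constant regions come from these genes. A resting B cell makes IgM and IgD from 1 primary transcript of Ighm and Ighd. Class switching then deletes the DNA between the variable exons and a later constant gene, so that a cell expresses IgG, IgE or IgA from 1 heavy chain allele. Each cell uses either the kappa gene Igkc or a lambda gene such as Iglc1 or Iglc2. In the gut, plasma cells secrete IgA joined by the J chain, and the epithelial receptor Pigr carries it into the lumen. In single cells the constant region transcript therefore shows the class of the antibody. A 3′ count does not separate the secreted from the membrane form.

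In GRCm38 the heavy chain genes lie on the minus strand of chromosome 12, in the order Ighm (113418558 to 113422730), Ighd (113406604 to 113416324), Ighg3 (113356224 to 113361232), Ighg1 (113325240 to 113330523), Ighg2b (113302965 to 113307933), Ighg2c (113285325 to 113288932), Ighe and Igha (113254830 to 113260236). Igkc lies on the plus strand of chromosome 6 (70726435 to 70726966). Iglc1 (19061618 to 19062071) and Iglc2 (19198396 to 19200351) lie on the minus strand of chromosome 16. The last 66 coding bases of the secreted form are shown for the 4 heavy chain genes on which the results turn, because they show how far apart the counted sequences are and where the IgA and IgM tails differ from those of IgG. They are exonic, were read from the GRCm38 genome with the GENCODE annotation, and run 5′ to 3′ on the coding strand. Capitals mark the next-to-last codon where it encodes cysteine, the residue through which IgA and IgM bind the J chain.
Igha, chr12:113258771-113258836, minus strand: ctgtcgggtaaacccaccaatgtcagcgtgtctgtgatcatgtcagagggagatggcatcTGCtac
Ighm, chr12:113420870-113420935, minus strand: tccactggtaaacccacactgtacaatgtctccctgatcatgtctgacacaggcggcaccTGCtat
Ighg2b, chr12:113306392-113306457, minus strand: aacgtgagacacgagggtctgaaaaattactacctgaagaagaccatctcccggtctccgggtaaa
Ighg2c, chr12:113287392-113287457, minus strand: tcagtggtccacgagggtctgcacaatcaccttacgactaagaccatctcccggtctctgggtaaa
The Ighg2b and Ighg2c ends differ at 17 of the 66 positions, and the Igha and Ighm ends at 24. Over the whole coding sequence Ighg2b and Ighg2c are 85.6% identical, and no stretch of 90 bases is shared exactly between them. The annotation follows the C57BL/6 reference, which carries Ighg2c, whereas some strains carry Ighg2a in its place, and the counts of this gene are uncertain to that extent.

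The light chain genes of the lambda locus come in near copies, so the last 90 coding bases of Iglc1, Iglc2 and Iglc3 are set beside each other. Iglc3 is not among the 10 genes, and it is shown because reads of Iglc2 and Iglc3 are the hardest to tell apart. Capitals mark the positions that differ among the 3 genes.
Iglc1, chr16:19061755-19061844, minus strand: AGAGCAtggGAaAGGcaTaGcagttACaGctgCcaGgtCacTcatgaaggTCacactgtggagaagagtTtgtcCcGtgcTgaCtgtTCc
Iglc2, chr16:19198539-19198628, minus strand: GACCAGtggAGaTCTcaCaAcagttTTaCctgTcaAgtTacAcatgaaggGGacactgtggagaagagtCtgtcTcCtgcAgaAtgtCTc
Iglc3, chr16:19065368-19065457, minus strand: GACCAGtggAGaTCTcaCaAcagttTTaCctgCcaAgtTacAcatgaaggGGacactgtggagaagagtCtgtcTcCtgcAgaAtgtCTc
Iglc2 and Iglc3 differ at 1 of the 90 positions and are 96.2% identical over their coding sequence, while Iglc1 differs from Iglc2 at 29. Values of Iglc2 and Iglc3 are uncertain where the counting could split reads between them.

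The libraries held 63889853 to 127772838 UMIs in 11754 to 20368 barcodes. After filtering, 16855 untreated and 10556 NPs cells of the intestine and 11333 untreated and 11942 NPs cells of the brain were kept. Barcodes with over 20% mitochondrial UMIs made up 16.7% of the untreated and 46.5% of the NPs intestinal library. The intestinal libraries also differed in the Hox genes that mark position along the gut. Genes of group 10 or higher held 79.7% of the Hox UMIs of the named epithelium in the untreated and 9.57% in the NPs library. Treatment and gut segment therefore cannot be told apart in the intestine. In every intestinal comparison the immunoglobulin UMIs of epithelial cells, described further on, are the background.

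Plasma-like cells of the intestine formed 1 cluster, found without use of immunoglobulin genes and with 12 of 13 plasma cell markers raised. It held 168 untreated cells, 0.997% of the kept cells (interval 0.852 to 1.16%), and 117 NPs cells, 1.11% (0.917 to 1.33%). Immunoglobulin genes made up a median of 47.5% of the UMIs of the untreated and 46.7% of those of the NPs cells. The share of plasma-like cells depended on how they were taken. With immunoglobulin genes kept in the clustering it was 3.58% untreated and 0.928% NPs. A cell was given a class when it had at least 10 heavy chain UMIs with at least 70% in 1 class, which left 165 untreated and 116 NPs cells with a call. The calls were clean, with a median of 99.3% and 100% of the heavy chain UMIs in the leading class.

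IgA was the most frequent class in both intestinal libraries, and it covered a larger share of the NPs plasma-like cells. IgA was called in 91 of 165 untreated cells, 55.2% (47.2 to 62.9%), and in 108 of 116 NPs cells, 93.1% (86.9 to 97.0%). The 4 IgG classes together made up 62 untreated cells, 37.6% (30.2 to 45.4%), against 8 NPs cells, 6.90% (3.02 to 13.1%). IgM/IgD was called in 12 untreated cells, 7.27% (3.81 to 12.4%), and in 0 of 116 NPs cells, which allows a share of up to 3.13%. The interval of each of these 3 shares lay apart from that of the other library, as the plot of classes by library shows. For IgM/IgD this did not hold with immunoglobulin genes kept in the clustering, where the untreated share was 2.48% (1.29 to 4.30%). Nor did it hold with cells gated by markers, that is by at least 2 Jchain UMIs and any Mzb1 UMI. There the IgM/IgD share was 19.1% (9.15 to 33.3%) and only 10 NPs cells were left. With that gate the IgG share was 44.7% untreated and 0% NPs, and so few NPs cells do not set the IgG intervals apart. Whether these differences go with the treatment, the gut segment or the animals was not tested.

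**Figure D1:**
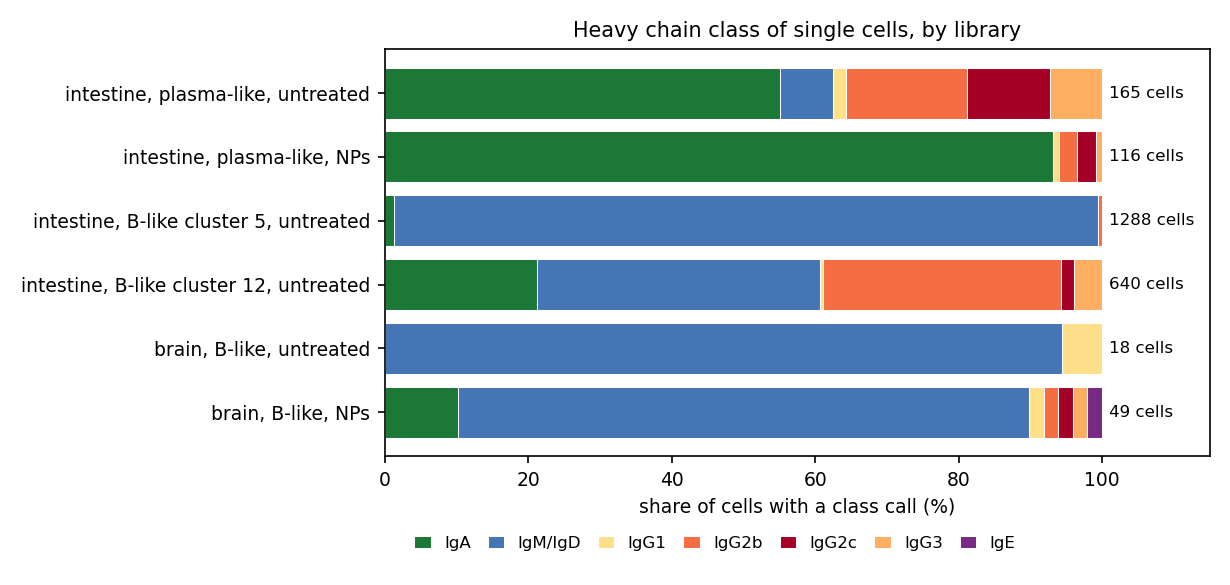
Each bar gives the share (%) of cells with a class call that fell in each heavy chain class, for the plasma-like and B-like cells of a library, with the number of called cells at its right. Cluster 5 is the B-like cluster with no raised germinal centre marker and cluster 12 the one with all 10 raised. IgA covers 55.2% of the untreated and 93.1% of the NPs intestinal plasma-like cells.

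Among the IgG classes of the untreated plasma-like cells, IgG2b led with 28 cells (17.0%), followed by IgG2c with 19 (11.5%), IgG3 with 12 (7.27%) and IgG1 with 3 (1.82%). The intervals of IgG2b (11.6 to 23.6%) and IgG2c (7.08 to 17.4%) overlapped, so their order is not fixed at this number of cells. In the NPs library 3 cells were IgG2b, 3 were IgG2c, 1 was IgG3 and 1 was IgG1. IgE was called in no intestinal plasma-like cell. Only 2 untreated cells were mixed, and 1 cell of each library had too few heavy chain UMIs. Barcodes with over 20% immunoglobulin UMIs that lay outside the plasma-like cluster numbered 63 in the untreated library, with IgA in 61.3% and IgG2c in 22.6% of the 62 called, and 14 in the NPs library, with IgA in all 12 called.

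Levels of the constant region genes in the plasma-like cells, as CPM (counts of a gene scaled to the same total in every class), differed between the libraries by gene. A gene was measured when the higher library held at least 20 UMIs and was set apart at 2-fold. By that rule 0 of 9 measured members were higher and 5 were lower in the NPs library, with a median log2 difference of -1.15. Over all 4851 genes measured the share at least 2-fold either way was 19.2%, with 12.3% higher and 6.93% lower, and the median log2 difference was -0.01. Ighd, with 17 UMIs in the untreated and 0 in the NPs cells, was too low to be measured.

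Igha, the IgA heavy chain, stood at 66032 CPM in the untreated and 110932 CPM in the NPs plasma-like cells, a ratio of 1.68 (interval 1.67 to 1.69). It passed 2-fold where plasma cells were taken otherwise, at 2.08 with immunoglobulin genes kept in the clustering, 2.145 over cells with at least 20 Jchain UMIs and 4.24 with cells gated by markers. Ighm, the IgM heavy chain, stood at 5802 CPM and 145 CPM, which is 40.0-fold lower in the NPs library (34.2 to 47.0). With cells gated by markers, which left 10 NPs cells, the ratio was 0.0861 for Ighm and 0.0161 for Ighg2b, and Ighg1, Ighg2c and Ighg3 had no UMI in the NPs cells. Ighg3 was 16.2-fold lower, at 4293 and 264 CPM. Ighg2c was 4.08-fold lower, at 7719 and 1893 CPM, and Ighg2b was 3.04-fold lower, at 20514 and 6744 CPM. Ighg1, the other IgG gene, differed by less than 2-fold, at 934 and 1261 CPM, and rested on 3 untreated cells and 1 NPs cell.

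These sums rest on few cells. In the NPs library the 3 cells with most UMIs of a gene held 93.7% of Ighg2b, 98.2% of Ighg2c and 97.3% of Ighg3. In the untreated library the same measure was 25.6%, 26.3% and 41.9%. For Igha it was 8.07% and 8.46%. A median untreated plasma-like cell carried 210 Igha UMIs and a median NPs cell 661, and the highest cells carried 3722 and 3724. The medians of Ighm and of each IgG gene were 0 in both libraries, so most cells held no UMI of these genes.

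**Figure D2:**
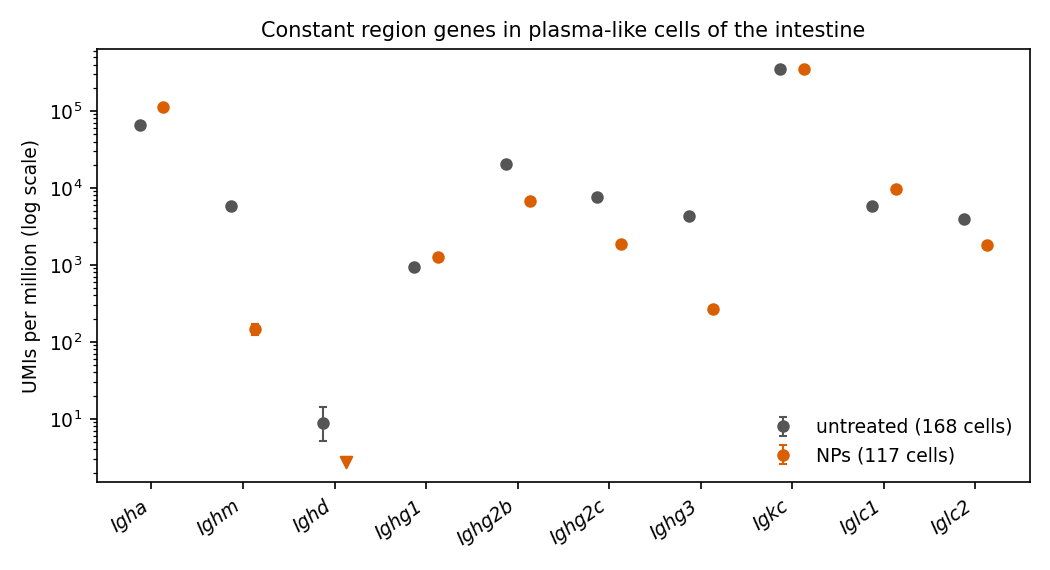
Points are the levels (CPM, log axis) of the 10 constant region genes summed over the plasma-like cells of each intestinal library, with exact 95% intervals for counting error only, which are narrower than the points for most genes. The triangle marks the level that 3 UMIs would give for Ighd in the NPs library, where none was counted, and Igkc lies at the same height in both libraries while Ighm and Ighg3 lie furthest apart.

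Igkc, the kappa constant gene, was the most abundant member, with 349902 CPM in the untreated and 348336 CPM in the NPs plasma-like cells. Kappa was called in 162 of 168 untreated cells, 96.4% (92.4 to 98.7%), and in 108 of 117 NPs cells, 92.3% (85.9 to 96.4%), and these intervals overlapped. Lambda was called in 6 untreated cells, of which 3 were led by Iglc1, 1 by Iglc2 and 2 by Iglc3. All 9 lambda cells of the NPs library were led by Iglc1. The level of Iglc1 was 5805 CPM in the untreated and 9712 CPM in the NPs cells, a ratio of 1.67, and its 3 highest cells held 77.1% and 82.4% of it. With cells gated by markers the ratio turned to 0.195. Iglc2 was 2.21-fold lower, at 3963 and 1791 CPM. That call was lost with immunoglobulin genes kept in the clustering (ratio 0.587), over cells with at least 20 Jchain UMIs (0.581) and with cells gated by markers (0.976).

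Light chain UMIs outnumbered heavy chain UMIs in every class of plasma-like cell, and by a margin that varied between classes. In the untreated library the ratio of light to heavy chain UMIs was 3.13 in IgA cells, 3.71 in IgM/IgD cells, 4.10 in IgG3 cells, 2.77 in IgG2b cells and 6.37 in IgG2c cells. The NPs library gave 2.92 in IgA, 2.94 in IgG2b and 6.24 in IgG2c cells. The IgG2c cells thus had the largest ratio in both libraries among the classes with at least 3 cells there, apart from the 3 untreated IgG1 cells at 6.70. Jchain, which encodes the J chain, was found in every called plasma-like cell of either library. Its level was 50345 CPM in untreated IgA cells, 43662 in IgM/IgD cells, 38141 in IgG2c cells, 26036 in IgG2b cells and 26077 in IgG3 cells.

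Of 10 genes of antibody secretion and transport, all were measured in the plasma-like cells. The most abundant were Jchain at 41542 CPM untreated and 38934 CPM NPs, Txndc5 at 508 and 1097 CPM, Xbp1 at 472 and 711 CPM, and Derl3 at 232 and 261 CPM. Xbp1 is a transcription factor of the secretory programme, and Txndc5 and Derl3 act in the endoplasmic reticulum. Over all 4851 genes measured 12.3% were higher and 6.93% lower. In this list 2 genes were at least 2-fold higher and 1 was lower, with a median log2 difference of 0.19. Named after their values were seen, these were Txndc5 (2.16-fold), the epithelial IgA carrier Pigr (4.18-fold, from 81.1 to 339 CPM) and Mzb1 (2.35-fold lower, with 33 and 8 UMIs). The gating of plasma cells by markers asked for an Mzb1 UMI, so it left out most plasma-like cells. Pigr rested on 157 and 373 UMIs. Named epithelial cells numbered 4878 among 16855 kept cells without NPs, and 9054 among 10556 with NPs. How much of the Pigr level was epithelial RNA was not tested, so its count as a higher gene is uncertain.

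Genes of the B cell surface were counted by the same rule. Of 11 such genes 8 were measured in the plasma-like cells, 0 were at least 2-fold higher and 5 were lower, with a median log2 difference of -1.75. Over all genes measured 12.3% were higher and 6.93% lower. The untreated library held 2525 B-like cells and the NPs library 3. The part of B-like cell RNA in these levels, and in those of the germinal centre genes below, was not tested. Cd79a, which signals for the surface antibody, stood at 1263 and 275 CPM, 4.59-fold lower. Cd79b, its partner, stood at 336 and 168 CPM and did not pass 2-fold. Ms4a1, a surface protein of mature B cells, stood at 111 and 2.72 CPM, 40.8-fold lower but with 3 UMIs in the NPs cells (interval 13.8 to 199). Syk, a kinase of the receptor, stood at 51.7 and 41.8 CPM. Of 15 genes of class switching and the germinal centre only 4 were measured, and 2 were lower. These were Mef2b, at 26.9 and 1.81 CPM, and Tnfrsf13c, the BAFF receptor, at 66.1 and 22.7 CPM, both named after their values were seen. Tnfrsf13b (103 and 123 CPM) and Tgfbr1 (30.5 and 31.8 CPM) were the other two. Outside the 10 members Iglc3 was 7.29-fold lower, while Ighe and Iglc4 were too low to be measured.

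IgG2c cells of the intestine carried Ighg2b as well. All 22 of them, from both libraries, had Ighg2b UMIs, which made up 5.43% to 22.4% of the heavy chain UMIs of a cell with a median of 10.5%. Summed over these cells it was 1927 of 18226 heavy chain UMIs. The reverse was not seen at this size. In 31 IgG2b cells Ighg2c made up at most 1.52% of the heavy chain UMIs of a cell, and 63 of 45406 in sum. Ighg2b was far lower in IgA and IgG3 cells, at 276 of 250999 heavy chain UMIs in the 199 IgA cells and 22 of 8755 in the 13 IgG3 cells. In the 4 IgG1 cells it was 5.74% of the heavy chain UMIs, with up to 16.05% in a cell, and in the 12 IgM/IgD cells 13 of 9908, with up to 20% in a cell. In the brain the 3 strongly secreting IgG2c cells had only 7 Ighg2b UMIs among 3738, with at most 0.811% in a cell. The plot of the 2 genes shows both amounts in each cell. Because of the likeness of these genes and the strain noted above, the levels of Ighg2b in IgG2c cells are uncertain, and a split of reads between them was not tested.

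**Figure D3:**
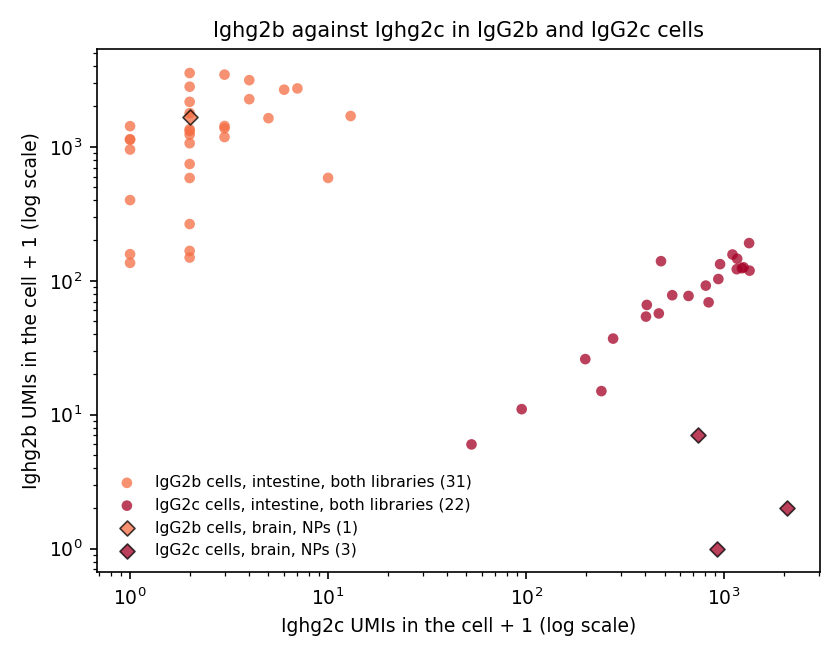
Each point is a cell, with its Ighg2c UMIs plus 1 on the x axis and its Ighg2b UMIs plus 1 on the y axis (log axes), for IgG2b and IgG2c cells among the plasma-like cells of the intestine (circles) and the secreting cells of the NPs brain library (diamonds). The 22 intestinal IgG2c cells all carry Ighg2b, while the 3 brain IgG2c cells lie below them at 0 to 6 Ighg2b UMIs.

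B-like cells were a feature of the untreated intestinal library. It held 2525 of them, 14.98% of the kept cells (14.5 to 15.5%), while the NPs library held 3, 0.0284% (0.00586 to 0.0830%). A further 491 untreated barcodes, led by Ms4a1, Cd79a and Vpreb3 and with a median of 1472 UMIs, formed a cluster that was not named. The B-like cells fell into 2 clusters, and no library comparison of their genes was possible. A class was called from at least 3 heavy chain UMIs with at least 70% in 1 class.

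The first B-like cluster, cluster 5, held 1635 untreated cells and was mostly unswitched. None of 10 germinal centre markers was raised, and Fcer2a, a surface receptor of resting follicular B cells, stood at 470 CPM. Of 1288 called cells 1264 were IgM/IgD, 98.1% (97.2 to 98.8%), 17 were IgA and 7 were IgG2b. Ighm stood at 1635 CPM and Ighd at 842 CPM, a ratio of 1.94, and 73.0% of the cells had UMIs of both genes.

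The second, cluster 12, held 890 untreated cells with all 10 germinal centre markers raised, and was therefore germinal centre B-like. Mki67, a gene of dividing cells, stood at 650.5 CPM. Of 640 called cells 252 were IgM/IgD, 39.4% (35.6 to 43.3%), 212 were IgG2b, 33.1% (29.5 to 36.9%), and 136 were IgA, 21.2% (18.1 to 24.6%). IgG3 was called in 25 cells, IgG2c in 12 and IgG1 in 3. Ighm exceeded Ighd by 41.4-fold, with Ighd at 23.4 CPM and Ighm at 968 CPM. A further 160 cells were mixed and 90 had too few UMIs. These cells were deeper, with a median of 5883 UMIs against 2088 in cluster 5. IgG2c made up 1.87% of the called cells of cluster 12, below IgG2b. Untreated plasma-like cells held 28 IgG2b and 19 IgG2c cells, with overlapping intervals, so their order is not fixed. Untreated barcodes with over 20% immunoglobulin UMIs outside the plasma-like cluster held 8 IgG2b and 14 IgG2c calls.

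Light chain calls in B-like cells were less clean than in plasma-like cells. Kappa was called in 1129 cells of cluster 5 and lambda in 36, while 458 were mixed. In cluster 12 the numbers were 792, 5 and 93. Kappa B-like cells carried a few UMIs of Iglc2 or Iglc3 in nearly every case, in 91.5% of those of cluster 5 and 94.9% of those of cluster 12. Lambda genes made up 16.2% and 11.7% of their light chain UMIs. An Iglc2 or Iglc3 UMI was as frequent in kappa plasma-like cells, in 97.5% and 86.1% of them, but the lambda share of their light chain UMIs was 1.38% in the untreated and 0.803% in the NPs library. The named epithelium of the untreated library, with a median of 3152 UMIs a cell, had an Iglc2 or Iglc3 UMI in 17.5% of cells.

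Immunoglobulin UMIs were also found in most cells of the named epithelium of the intestine, and they set the floor for these values. Whether they came from free RNA was not tested. At least 1 Igkc UMI was found in 80.6% of the named epithelial cells of the untreated and 83.3% of those of the NPs library, with median depths of 3152 and 7694 UMIs. Igha was found in 29.4% and 66.5% of them, and Ighm in 12.7% and 0.762%. Thinned to 1000 UMIs per cell, the shares were 38.9% and 27.6% for Igkc, 7.13% and 17.6% for Igha, and 5.50% and 0.153% for Ighm. In both libraries Igha led the heavy chain UMIs of the epithelium, as it did those of the plasma-like cells. Igha made up 54.7% of them in the untreated and 97.1% in the NPs library, and Ighg2b 20.2% and 1.08%. In the plasma-like cells Igha made up 62.7% and 91.5%, and Ighg2b 19.5% and 5.56%.

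The limits used for the calls stand above this floor for plasma-like cells but not fully for B-like cells. The minimum of 10 heavy chain UMIs was reached by 2.87% of untreated and 1.33% of NPs epithelial cells. The minimum of 3 was reached by 12.3% and 18.7%, and by 14.6% of untreated T cell-like cells. Class calls in B-like cells, at a median of 8 heavy chain UMIs, are therefore less certain than those in plasma-like cells. In the T cell-like cells that reached 3 UMIs, 124 of 404 were called IgM/IgD and 94 IgA.

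Across the 30 intestinal clusters the gene most like Igha was Jchain, with a Pearson correlation of 0.94 of the log2 levels, followed by Akap17b (0.81), Derl3 (0.81), the chemokine receptor Ccr10 (0.81) and Pkd2l2 (0.81). The genes most like Ighm were Tnfrsf13b (0.95), Irf4 (0.92), A530040E14Rik (0.92), AI662270 (0.91) and 4833421G17Rik (0.91). Clusters share libraries and the floor of immunoglobulin UMIs described above, so these values are a description.

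In the brain few cells were rich in these transcripts. A cell with at least 10 UMIs over the 10 genes was found in 32 of 11333 untreated cells, 0.282% (0.193 to 0.398%), and in 63 of 11942 NPs cells, 0.528% (0.406 to 0.675%). The plot of heavy against light chain UMIs shows their kinds. Most were B-like cells, 18 untreated and 49 NPs. Cells with at most 2 light chain UMIs numbered 10 untreated, of which 7 were microglia-like, and 6 NPs, all microglia-like. Secreting cells with very high counts numbered 1 untreated and 6 NPs, and 3 untreated and 2 NPs cells were of none of these kinds. The B-like cluster had all 12 B cell markers raised and held 18 untreated cells, 0.159% (0.0942 to 0.251%), and 51 NPs cells, 0.427% (0.318 to 0.561%).

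**Figure D4:**
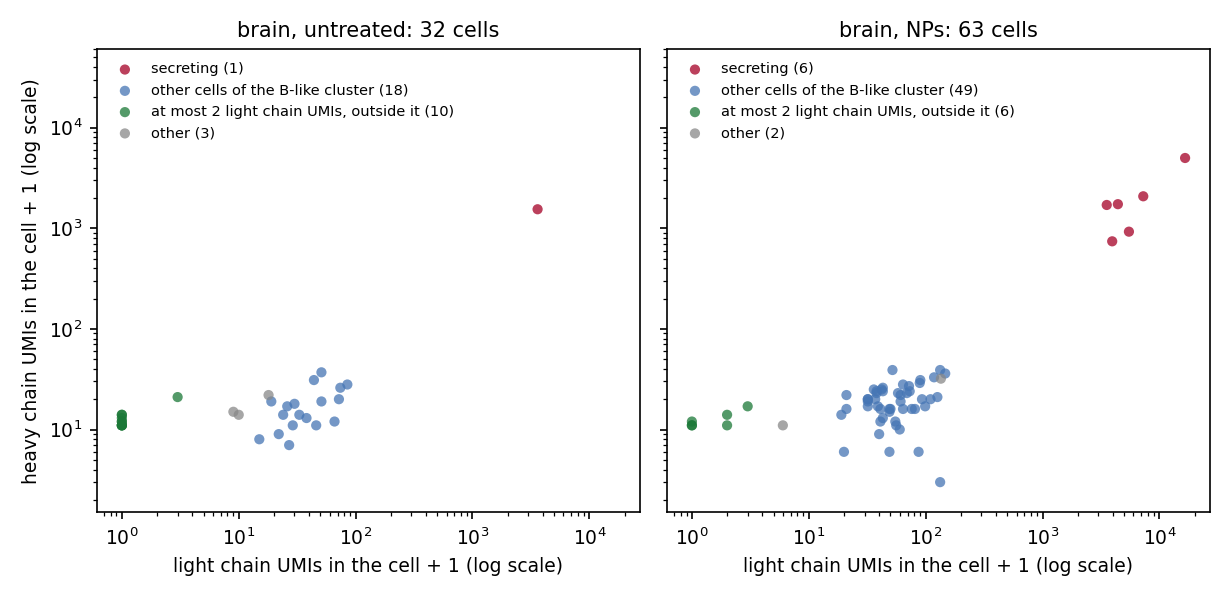
Each point is a brain cell with at least 10 UMIs of the 10 constant region genes, with its light chain UMIs plus 1 on the x axis and its heavy chain UMIs plus 1 on the y axis (log axes). The secreting cells, 1 untreated and 6 NPs, lie far above the others, and the 10 untreated and 6 NPs cells at the left edge had at most 2 light chain UMIs.

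Brain B-like cells were mostly of the unswitched class. In the untreated library 17 of 18 were IgM/IgD, 94.4% (72.7 to 99.9%), and 1 was IgG1 with 6 Ighg1 UMIs. In the NPs library 39 of 49 called cells were IgM/IgD, 79.6% (65.7 to 89.8%), and these intervals overlapped. Of the others 5 were IgA, and 1 each was IgG1, IgG2b, IgG2c, IgG3 and IgE. The IgG2c cell is also 1 of the secreting cells described next. The IgA cells had 9 to 32 Igha UMIs. The IgE cell had 37 Ighe UMIs among 38 heavy chain UMIs, and IgE was called in no B-like cell of the other libraries. IgA was called in 0 of 18 untreated cells, which allows a share of up to 18.5%, so its absence there is not shown. All brain B-like cells with a light chain call were kappa, 14 untreated and 46 NPs, and the other 4 and 5 were mixed. Kappa cells carried an Iglc2 or Iglc3 UMI in every case, against 0.0480% and 0.222% of astrocyte-like cells.

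The secreting cells were defined by at least 100 Jchain UMIs and over 10% immunoglobulin UMIs. The single untreated cell carried 1529 Igha, 3516 Igkc and 533 Jchain UMIs. The 6 NPs cells were 2 of IgA, 3 of IgG2c and 1 of IgG2b, all with kappa. The IgA cells carried 4985 and 1722 Igha UMIs, the IgG2c cells 2074, 915 and 734 Ighg2c UMIs, and the IgG2b cell 1674 Ighg2b UMIs. The first IgA cell had 16552 Igkc UMIs and 71.1% immunoglobulin. Its barcode also occurred in the NPs intestinal library, where it held 1 UMI of these genes among 11792. The IgG2b cell had 47 Mki67 UMIs. These cells lay in different clusters, 3 of the NPs cells among microglia-like cells, 1 in the B-like cluster, 1 with the T cell-like and 1 with the neuroblast or progenitor-like cells, and the untreated cell with the T cell-like cells. None of them had more than 2 UMIs of P2ry12, a microglial gene, while the 2 that lay with the T cell-like cells had 4 and 5 UMIs of the T cell gene Cd3e.

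Few cells thus held most of the class-switched transcripts of the brain. In the NPs library the 6 secreting cells held 93.7% of the Igha, 97.8% of the Ighg2b, 91.0% of the Ighg2c and 91.3% of the Igkc UMIs of the kept cells. In the untreated library the single secreting cell held 94.4% of the 1619 Igha and 83.1% of the 4231 Igkc UMIs. Ighm and Ighd were distributed otherwise. The secreting cells held none of either, and microglia-like cells held 87.6% of the Ighm UMIs in the untreated and 87.4% in the NPs library.

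Ighm in microglia-like cells came mostly without a light chain. With the secreting cells left out, 64.8% of 5311 untreated cells had an Ighm UMI, at a level of 267 CPM (261 to 273), and 57.8% of 6523 NPs cells, at 224 CPM (219 to 229). The highest cell had 10 Ighm UMIs in the untreated and 16 in the NPs library. Of the cells with Ighm, 98.3% in the untreated and 88.0% in the NPs library had no light chain UMI. Ighm exceeded Ighd by 13.88-fold and 15.98-fold, and Igkc stood at 2.42 and 23.9 CPM. Astrocyte-like cells, which should lack the gene, had Ighm in 3.86% and 4.71% of cells, at 8.59 and 12.8 CPM, with median depths of 4879 and 4450.5 UMIs against 4940 and 4705 in microglia-like cells. Of the astrocyte-like cells with Ighm, 98.1% and 84.3% had no light chain UMI, so that lack is not particular to microglia-like cells. The share of microglia-like cells with an Ighm UMI lay far above the astrocyte-like background, and the NPs to untreated ratio of Ighm in microglia-like cells was 0.838.

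Ighm was not limited to microglia-like cells among the brain classes. B-like cells stood far higher, at 2577 CPM untreated and 1751 CPM NPs. The cluster led by Cd74, Lyz2, H2-Aa and Plac8 stood at 459 CPM in 118 untreated and 217 CPM in 66 NPs cells, above the microglia-like cells in the untreated library and near them in the NPs library. T cell-like cells stood at 98.4 and 66.4 CPM. It was lower in neuroblast or progenitor-like cells, at 30.2 and 25.1 CPM, and in endothelial-like cells, at 15.2 and 14.9 CPM. In the intestine the CPM of Ighm also lay above that of the epithelium in some classes other than B-like and plasma-like cells. In macrophage or monocyte-like cells of the NPs library 46.6% of 356 cells had an Ighm UMI, at 222 CPM, against 0.762% and 0.691 CPM in the epithelium of the same library. In the untreated library 24.8% of 105 such cells had one, at 116 CPM against 22.9 CPM in the epithelium. T cell-like cells stood at 177.5 CPM in the untreated and 47.6 CPM in the NPs library, and NK cell or ILC-like cells at 122.5 and 119 CPM.

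**Figure D5:**
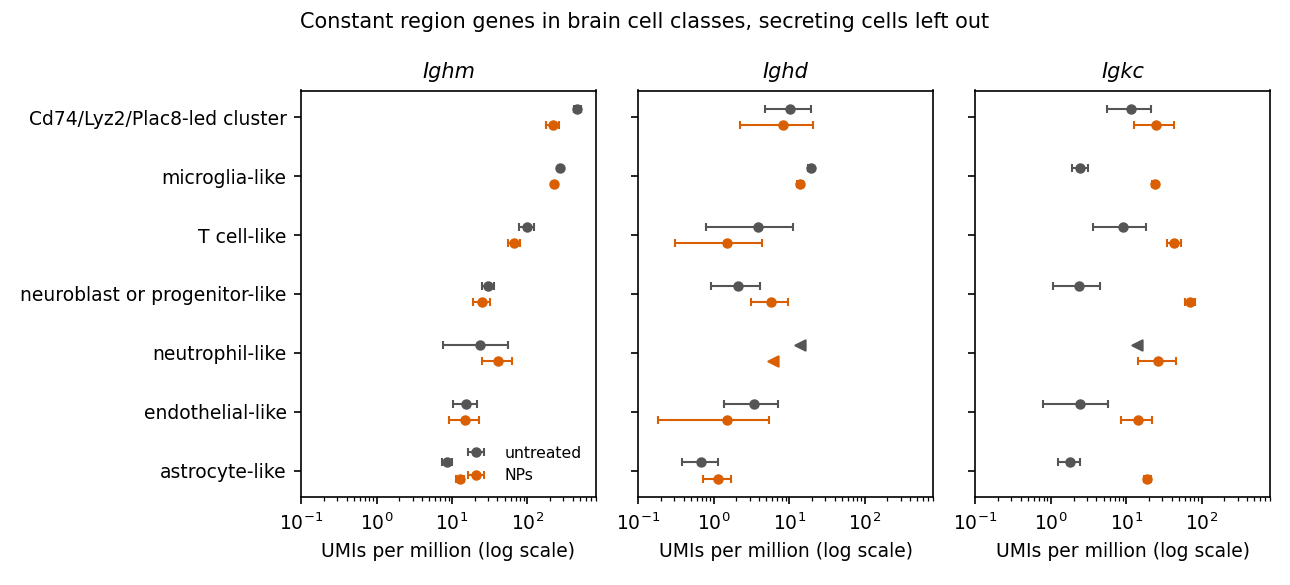
Points are the levels (CPM, log axis) of Ighm, Ighd and Igkc in 7 brain cell classes of each library, with the B-like class not drawn and the secreting cells left out, with exact 95% intervals for counting error only. Triangles mark the level that 3 UMIs would give where none was counted. Among the classes drawn Ighm is highest in the cluster led by Cd74, Lyz2 and Plac8 and in microglia-like cells, while Igkc lies further to the right in the NPs library in microglia-like and astrocyte-like cells.

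In microglia-like cells 6 of 8 measured members were at least 2-fold higher in the NPs library and 0 lower, with a median log2 difference of 4.16. Over 15488 genes 5.55% passed 2-fold either way, 2.13% higher and 3.42% lower, with a median of 0.02. Most of the members' difference lay in the 3 secreting cells of this class. The share over all genes was not computed without these cells, so the next count has no background beside it. Without them 3 of 5 measured members were higher, Igkc (9.87-fold), Igha (4.10-fold) and Ighg2c, which had 199 UMIs against 1. These 3 genes were higher in astrocyte-like cells as well, where Igkc stood at 1.77 and 19.0 CPM, Igha at 0.909 and 4.90 CPM, and Ighg2c at 0 UMIs and 5.47 CPM. They are the genes of the secreting cells of that library, and the part of free RNA in these low levels was not tested.

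Other genes of the pathway were counted in microglia-like cells by the same rule. Over all 15488 genes measured there, 2.13% were higher and 3.42% lower. Of the secretion genes 7 of 10 were measured, 1 was higher and 0 lower. The higher one was Jchain, with 6 and 3563 UMIs, of which the 3 secreting cells of this class held 2146, 967 and 317, and Xbp1 stood at 144 and 136 CPM. Of the B cell surface genes 6 of 11 were measured, 1 was higher (Cd79a, 9 and 59 UMIs, with 5, 13 and 19 in the secreting cells) and 1 lower (Cr2, 32 and 7 UMIs). Of the class switching genes 12 of 15 were measured, 1 was higher (Cd40, 7 and 45 UMIs) and 1 lower (Mef2b, 21 and 4 UMIs). These few were named after their values were seen. The most abundant of the last list, Tgfbr1, stood at 1251 and 1294 CPM.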

How the data were processed

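The 4 libraries were 10x 3′ single-cell RNA libraries, 1 per group. The deposited matrices hold UMI counts per gene and barcode as the authors' pipeline wrote them. The submitters' processing notes name Cell Ranger 5.0.1 and GRCm38. The members and the gene lists were chosen with earlier results of these data known.

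A barcode was kept with 500 UMIs and 200 genes or more and no more than 20% mitochondrial UMIs. Scrublet was run per library. Its own threshold marked 0.0354% and 0% of the intestinal cells and so had not worked there, and a score of 0.25 was used in its place, which removed 0.660% and 0.855%. In the brain it removed 2.87% and 2.03%. The 2 libraries of each tissue went into 1 clustering with no batch correction (scanpy 1.11.5, 2000 variable genes, 30 components, 15 neighbours, Leiden resolution 1), with 395 immunoglobulin genes left out. A cluster was named from at least 3 markers raised 2-fold. Clusters that did not meet the naming rules stayed unnamed, 33.1% of the untreated and 2.54% of the NPs intestinal cells. The libraries shared 35 to 104 barcodes per pair, of which 1 lay among the plasma-like cells of each intestinal library, 37 among the 2525 B-like cells and 1 among the 51 B-like cells of the NPs brain.

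Counts were summed per class and library and scaled to CPM over all genes. Intervals are exact binomial or Poisson at 95%. A fold was read where the higher library held at least 20 UMIs. The 4 most abundant genes of each list were named by rule, with other genes marked as chosen after their values were seen. The likeness of genes used log2(CPM + 10) over genes with at least 100 UMIs. Sums and calls were tested on simulated data. The class call was simulated only for cells rich in heavy chain UMIs, at the minimum of 10. Calls at the minimum of 3, used for B-like and brain cells, were not simulated. Alternatives varied the filters, the clustering, the gates, the call limits and the scaling, and those added after seeing the data are named as such.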

Additional observations from a re-analysis of the deposited data

Results flagged for a closer look

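All 10 genes had a ratio of NPs to untreated CPM below 1 over the whole intestinal libraries and above 1 over the whole brain libraries. In 4 of them the difference was at least 2-fold in both tissues, with at least 20 UMIs in the higher library of each. Each side is 1 library, and the difference between tissues was not tested. The share of all genes that differ in this way was not computed, so the count of 4 has no background beside it. The ratios cover all barcodes before filtering, and the cell classes differed between the libraries, with 2525 untreated and 3 NPs B-like cells in the intestine. For Igha the intestinal ratio was 0.892, against 1.68 in plasma-like cells, and for Ighm the brain ratio was 1.085. Ighg2b had a ratio of 0.135 in the intestine and 478 in the brain. Ighg2c had ratios of 0.114 and 349. Igkc had ratios of 0.444 and 11.6, and Iglc2 had ratios of 0.109 and 8.02. In the brain the 6 secreting cells of the NPs library held 97.8% of the Ighg2b, 91.0% of the Ighg2c, 91.3% of the Igkc and 47.6% of the Iglc2 UMIs. The time under NPs also differed between the tissues, with 1 week before the intestinal and 2 months before the brain cells.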

How the results depend on the processing

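No paired analysis was possible because each group has 1 library and no test was made. IgA covered a larger share of NPs than of untreated plasma-like cells under all 14 alternatives, with 36.2% to 63.8% untreated and 91.8% to 100% NPs. Of 181 values of main results, 139 stayed within the counting interval or 1.5 times the count and 42 moved.

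With immunoglobulin genes kept in the clustering, the plasma-like share of the untreated library was 3.58%, its IgA share 63.3% and kappa share 98.98%, the Igha ratio was 2.08 and 1 member was higher. With cells gated by markers, plasma cells made up 0.303% untreated and 0.0947% NPs (10 cells), IgA 36.2% and 100%, kappa in NPs 100%, the Igha ratio was 4.24, 1 member was higher, B cells made up 18.7% of the untreated library and IgM/IgD 71.8% of them. With at least 20 Jchain UMIs, an alternative chosen after seeing the data, the untreated share was 1.92%, the Igha ratio 2.145 and 1 member was higher. At a 10% mitochondrial limit the NPs plasma-like share was 1.49%, the untreated B-like share 15.9% and the Igha ratio 1.699. With no such limit these shares were 0.615% and 13.4%. At a minimum of 1000 UMIs the untreated shares were 1.485% plasma-like and 16.9% B-like and the Igha ratio 1.73. With doublets kept, B-like cells made up 17.6% and IgM/IgD 76.0% of them. The Igha ratio was 1.71 at resolution 0.5, 1.71 as a mean over cells and 1.72 without immunoglobulin UMIs in the total.

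Among untreated B-like cells IgM/IgD was 75.3% and kappa 94.9% when 50% sufficed for a call, kappa was 97.2% and untreated plasma-like IgA 63.8% when 90% was asked, and IgM/IgD was 88.4% and kappa 96.9% when cells were thinned to 1000 UMIs. In the brain a minimum of 5 member UMIs gave 391 rich cells in each library, with IgM/IgD in 99.5% of the untreated and 96.1% of the NPs calls, and a minimum of 20 gave 21 untreated cells. Without the secreting cells, left out after seeing the data, 3 members were higher in microglia-like cells. The cause of these shifts was not tested. Class calls in B-like cells rested on a median of 8 heavy chain UMIs.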
